A study of Mus musculus with 8 samples.

Results

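Deletion of the PR domain of Prdm16 was compared with its own wild-type control in embryoid bodies, the aggregates that mouse embryonic stem cells form as they differentiate, at day 9. The comparison used 4 RNA-seq libraries on a C57BL/6 background, 2 labelled as PR domain knockout and 2 as wild type, with a tag for exon 4 in the titles of all 4. Loci were kept where at least 2 of these 4 libraries had a value of at least 10, which left 15878 of 52281 named loci. The rest of the series is a knockout labelled as Prdm16 with a wild-type set of its own, again 2 libraries each. All 8 libraries entered the model, because 2 libraries a group give little information on spread. The labels give no cell line, clone or allele for any group and do not say whether replicates were separate cultures. Adjusted p-values therefore rest only on the spread between these libraries (possibly a technical one), and knockout and cell clone cannot be told apart.

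PRDM16 is a zinc finger transcription factor of the PRDM family. The PR domain, near its N terminus, resembles the SET domain of histone methyltransferases, and its zinc fingers bind DNA and recruit repressor and activator complexes. It is best known for the identity of brown fat cells and also acts in blood stem cells, neural progenitors, the heart and arterial endothelium. Embryoid bodies of this age hold many cell types, among them beating heart muscle, vessels, primitive blood, macrophages and the endoderm that lines the yolk sac. In such bulk samples fewer cells of a type and less RNA per cell cannot be told apart.

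Levels are given as normalised fragments, the fragments of a locus divided by the size factor of its library. They are not corrected for transcript length and are compared between libraries, not between genes. Changes are log2 fold changes of knockout over control on the log2(value + 1) scale, with standard error, from limma. A locus is called higher or lower at a Benjamini-Hochberg adjusted p below 0.05 over all 15878 loci. Library values are listed as replicate 1 and replicate 2. Groups are called apart where both knockout values lie on the same side of both control values. Both lay above at 24.9% of all loci and below at 32.5%, so being apart was common.

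Prdm16 itself was low in every library. It had 44.6 and 22.7 normalised fragments in the control and 23.3 and 15.7 in the knockout, from 66 and 45 fragments in all. The groups overlapped, and the log2 fold change of -0.71 ± 0.50 did not pass (limma adjusted p = 0.364). A value summed over the whole gene cannot reveal a missing exon, so it does not check the labels. In the GENCODE M21 annotation (GRCm38), exon 4 of the full-length transcript Prdm16-201 lies at chr4:154367178-154367315 on the minus strand. It is 138 bases long, which is 46 codons with a remainder of 0, and follows 435 coding bases of a coding sequence of 3825. The same exon is in 3 of 7 coding transcripts. The sources used here do not say which bases were removed. The exon is shown because the titles name it, in lower case throughout:
Prdm16 exon 4: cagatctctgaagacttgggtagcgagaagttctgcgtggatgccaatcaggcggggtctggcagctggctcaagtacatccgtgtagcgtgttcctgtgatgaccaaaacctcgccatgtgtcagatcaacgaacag

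Across all loci 3198 passed the test, 20.1% of those tested. Of these 1400 were higher in the knockout (8.82%) and 1798 were lower (11.3%). The counts of each list below stand beside these shares. Lists not far from them included the PRDM family (16.7% higher, 16.7% lower) and H3K4 and H3K9 methylation (0% and 16.2%). Cholesterol synthesis (13.8% and 20.7%), stress genes (8.11% and 21.6%) and the hedgehog list (13.3% and 0%) were others. The loci called higher had a median log2 fold change of 0.55 and those called lower of -0.37. Changes of at least 2-fold were called at 503 loci, 282 of them higher. Scaling shifted the balance: 43.8% of calls were higher with the deposited scaling, 52.0% with TMM and 54.3% with median-ratio scaling. The 4 libraries held 7417089 to 9086885 fragments on named loci. DESeq2 made 1797 calls and limma on the deposited FPKM 642. Where a list below has a range with 1 library left out, it is the lowest and highest count when each of the 4 libraries was left out in turn. Precision followed the level, with 8.14% of loci called below a mean of 30 and 38.0% at 1000 or more. Of the 5 loci on the Y chromosome 0 were called, at a median of 0.19.

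Whole chromosomes differed between the groups, which bears on many single genes. On chromosome 8 the median log2 fold change was -0.32, and 389 of 785 loci were lower (49.6%) while 20 were higher. The shift ran along the chromosome: in 12 windows of 10 Mb with at least 20 loci the medians lay between -0.39 and -0.24. Chromosome 19 had a median of -0.14 with 120 of 488 loci lower, and chromosome 6 a median of 0.08 with 131 of 779 higher. The other 17 chromosomes, X included, had medians between -0.04 and -0.0049. Relative to the control libraries of the Prdm16 knockout, median log2 levels on chromosome 8 were 0.19 and 0.19 in the PR domain control and -0.12 and -0.09 in the PR domain knockout. They were -0.16 and -0.17 in the Prdm16 knockout, which on chromosome 19 had -0.16 and -0.18. On chromosome 19 the PR domain control had 0.080 and 0.078 and the PR domain knockout -0.018 and 0.003. For chromosome 6 these were -0.125 and -0.123 in the PR domain control and -0.013 and -0.033 in the PR domain knockout. Outside chromosomes 6, 8 and 19 there were 1211 higher calls (8.76%) and 1247 lower calls (9.02%) among 13826 loci. For genes on these 3 chromosomes a centred value is given below, the log2 fold change after the medians of all chromosomes were set equal. That setting was chosen after the data were seen. The part of the chromosome shift in the change of any gene was not tested, and chromosome copy number was not measured.

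**Figure D1:**
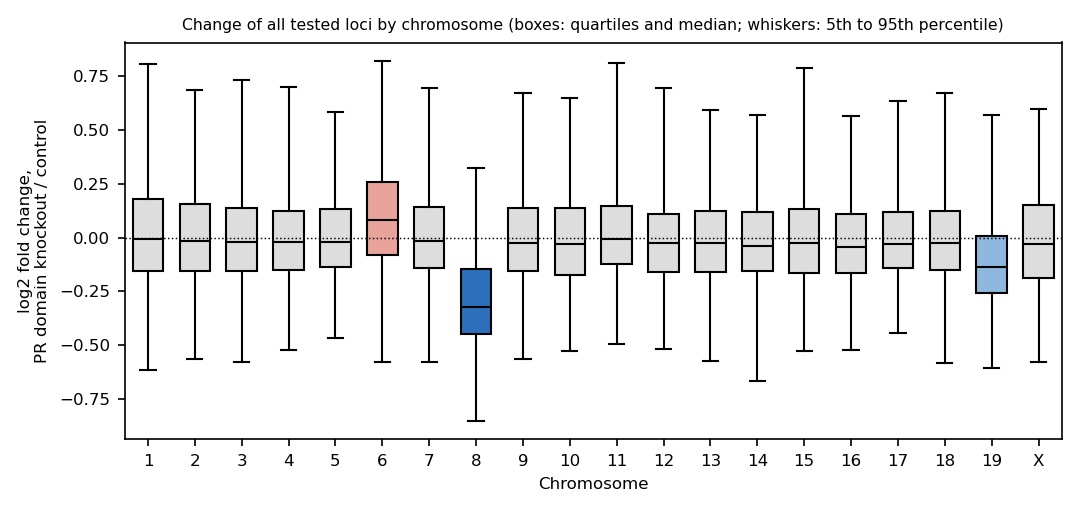
Log2 fold change (PR domain knockout over control) of all tested loci by chromosome, with boxes for the quartiles and median and whiskers from the 5th to the 95th percentile. Chromosome 8 (dark blue, median -0.32) lies below the others, followed by chromosome 19 (light blue, -0.14), while chromosome 6 (pink) has a median of 0.08.

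Among protein-coding genes with a mean of at least 100, the 15 largest falls included regulators of several mesodermal lineages. Ebf2, a transcription factor of mesenchymal and brown fat precursors that works with PRDM16 in fat cells, had 150 and 203 normalised fragments in the control and 32.3 and 36.4 in the knockout. Its log2 fold change was -2.32 ± 0.25 (limma adjusted p = 2.13e-08). Every control library lay above every knockout library, as the choice of these 15 genes requires. Pax1, a paired-box gene of the sclerotome, fell by 1.69 on the log2 scale. Sall1, a zinc finger gene of kidney and limb development on chromosome 8, fell by 1.60 (centred -1.28). Others among the 15 were vessel genes (Notch4, Gja5, Icam2), heart muscle genes (Ttn, Myocd, Sorbs2, Hrc, Actc1), the axon guidance gene Ntn1 and Klhl4, down to -1.39.

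The 15 largest rises came mostly from blood cells and yolk sac endoderm. Apom, an apolipoprotein of high-density lipoprotein, had 66.9 and 52.6 normalised fragments in the control and 222 and 209 in the knockout. The log2 fold change of Apom was 1.84 ± 0.08 (limma adjusted p = 5.88e-17), with the groups apart, as the choice of these 15 genes requires. Angptl7, a secreted angiopoietin-like protein, rose from 432 and 380 to 1338 and 1360, by 1.73 ± 0.08. Il10ra, the interleukin 10 receptor (1.78), Fcgr1, an Fc receptor (1.40), Cd300c2 (1.51) and C1qa, a complement component (1.34), are genes of macrophages. Itga2b (1.32) and Tubb1 (1.34) are genes of megakaryocytes and platelets, and Hba-a1 (1.28) encodes an alpha globin. Ttr, the thyroid hormone carrier of plasma, rose by 1.27. Reln, Mylk, Mfsd2b, Tspan32 and Tbxas1 completed the 15, at 1.29 to 1.67, and Tbxas1 lies on chromosome 6 (1.34, centred 1.27).

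**Figure D2:**
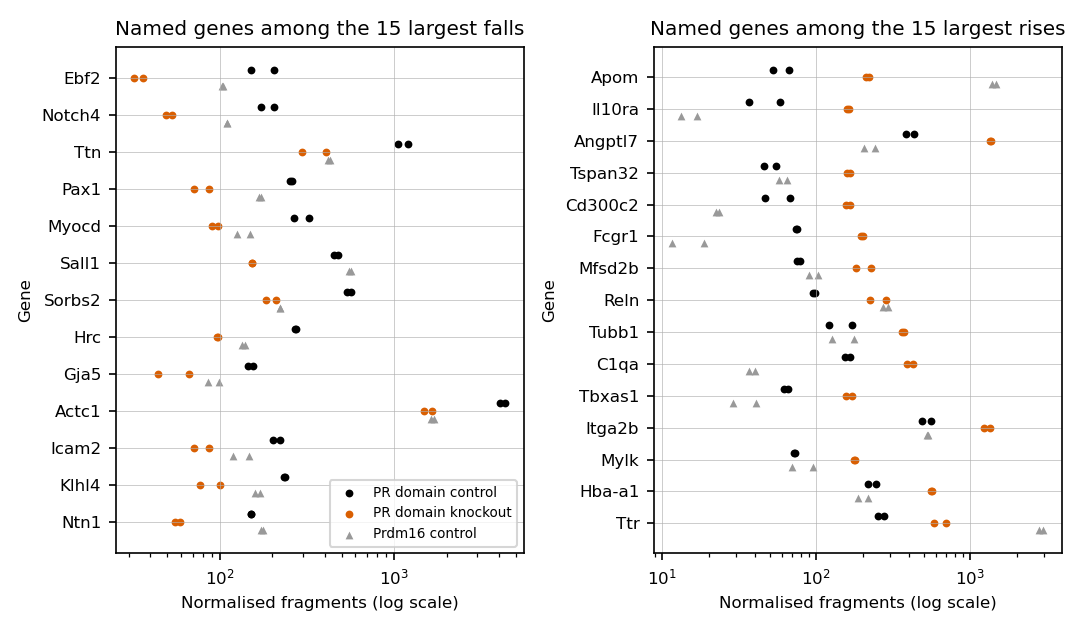
Normalised fragments (log axis) of the genes named from the 15 largest falls and the 15 largest rises among called protein-coding genes with a mean of at least 100. Points are single libraries: PR domain control in black, PR domain knockout in orange and, for reference, the control of the Prdm16 knockout in grey. In both panels the orange points stand clear of the black ones, as the choice of the genes requires, while the grey ones can lie on either side, as for Ttr at 2792 and 2980.

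Genes of the heart muscle contractile apparatus were lower almost throughout. Of 11 tested loci for thick filament proteins 10 fell and 0 rose, with a median of -1.11, beside a median of -0.03 over all loci. The locus of Myh6 and Myh7, neighbouring genes for the cardiac myosin heavy chains, had 6052 and 6529 normalised fragments in the control and 2306 and 2095 in the knockout (-1.52 ± 0.05, limma adjusted p = 4.22e-20). Myl7, the atrial myosin regulatory light chain, had 3416 and 3473 in the control and 1318 and 1496 in the knockout. Both control libraries stood far above both knockout libraries. Ttn, the giant spring protein titin, fell by 1.69, Myl4, the atrial essential light chain, by 0.92 and Myl2, the ventricular regulatory light chain, by 0.61. Mybphl, an atrial myosin-binding protein, was low, with 34.5 and 28.9 in the control and 17.9 and 20.7 in the knockout, and did not pass.

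Of 23 thin filament and Z-disc loci 21 fell and 0 rose (median -0.99), among them 18 of 19 loci outside chromosomes 6, 8 and 19. Actc1, cardiac alpha-actin, had 4350 and 4048 normalised fragments in the control and 1659 and 1490 in the knockout, a change of -1.42 ± 0.05 (limma adjusted p = 2.21e-19). Tnnt2, the cardiac troponin that anchors the complex to tropomyosin, went from 2685 and 2672 to 1450 and 1384. Nebl, a Z-disc protein of the nebulin family, fell by 1.30. Smyd1, a muscle-specific methyltransferase needed for sarcomere assembly, fell by 1.30 too (chromosome 6, centred -1.37), and Sorbs2 by 1.49 (chromosome 8, centred -1.17). Tcap and Lmod2 did not pass, at -1.17 ± 0.47 and -0.73 ± 0.37 from fewer than 33 normalised fragments a library.

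The CArG box, the site of serum response factor, is a classic element of both sarcomere and immediate early promoters. RefSeq promoters (250 bases before to 50 after the start, GRCm38.p6) of 11 thick filament and 19 thin filament and Z-disc genes were searched on both strands. The box stood in 3 of each, against 1.81% of all genes with a promoter. A match is a match of letters and not a shown binding site. Among the sarcomere genes considered for printing, only Actc1 and Myl7 had a box before the start. Others such as Myh6 and Tnnt2 gave no match in the promoters available. Upstream stretches of Actc1 and Myl7 are printed with the box in capitals. They lie at chr2:114052888-114052947 and chr11:5898809-5898868, both on the minus strand:
Actc1: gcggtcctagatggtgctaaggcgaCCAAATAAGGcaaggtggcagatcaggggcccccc
Myl7: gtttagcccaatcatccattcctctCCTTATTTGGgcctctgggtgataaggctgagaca

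Calcium handling and ion channel genes were divided. Of 23 loci 13 fell and 2 rose (median -0.34). Slc8a1, the sodium-calcium exchanger, had 1867 and 1936 normalised fragments in the control and 1037 and 955 in the knockout. Hrc, a calcium-binding protein of the sarcoplasmic reticulum, fell by 1.48, and Ryr2, its calcium release channel, by 0.79. Atp2a2, the calcium pump of the same store, fell by only 0.26, from 2867 and 2858 to 2442 and 2326. Gja1, the connexin of ventricular muscle and many other cells, rose by 0.41, and Cacna1g, a T-type calcium channel, by 1.08. Kcnh2, a potassium channel, had 301 and 275 against 228 and 292 and did not pass.

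Of 20 cardiac transcription factors 11 fell and 4 rose, with 2 higher without control replicate 1. Myocd, the coactivator of serum response factor in heart and smooth muscle, had 327 and 265 normalised fragments in the control and 97.8 and 90.2 in the knockout (-1.64 ± 0.15). Isl1, a factor of second heart field progenitors, had 241 and 222 against 97.8 and 90.2, and Nkx2-5, an early factor of the heart field, 57.8 and 73.3 against 26.9 and 27.3. Tbx1, another second heart field gene, fell by 1.67. Gata4 rose from 1525 and 1530 to 1966 and 1964, and Wt1, a factor of the epicardium and of mesothelium, from 396 and 387 to 881 and 857. Neither Tbx20 (1112 and 1126 against 1104 and 1070) nor Tbx5 (133 and 121 against 128 and 138) passed. Hormone and muscle energy genes fell at 5 of 14 loci and rose at 2 (3 to 4 and 1 to 2 with 1 library left out), with Eno3, the muscle enolase, at -0.87 and Cox6a2, a muscle cytochrome oxidase subunit, at -1.04, while Acadm and Cd36 did not pass.

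Smooth muscle genes showed no common direction, with 5 of 18 loci lower and 4 higher. Without control replicate 2 there were 3 lower and 1 higher, and without knockout replicate 1 there were 3 lower. Acta2, smooth muscle actin, which early heart muscle also makes, had 7656 and 7403 normalised fragments in the control and 4156 and 4137 in the knockout (-0.86 ± 0.04, chromosome 19, centred -0.73). Tagln, another early smooth muscle gene, fell by 0.15, and Mylk, the kinase of smooth muscle myosin, rose from 73.0 and 71.2 to 176 and 179. The mature marker Myh11 was near 0 in all 4 libraries, at 2.48 to 10.1. Pdgfrb, a receptor of pericytes, did not pass at 865 and 859 against 938 and 853.

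**Figure D3:**
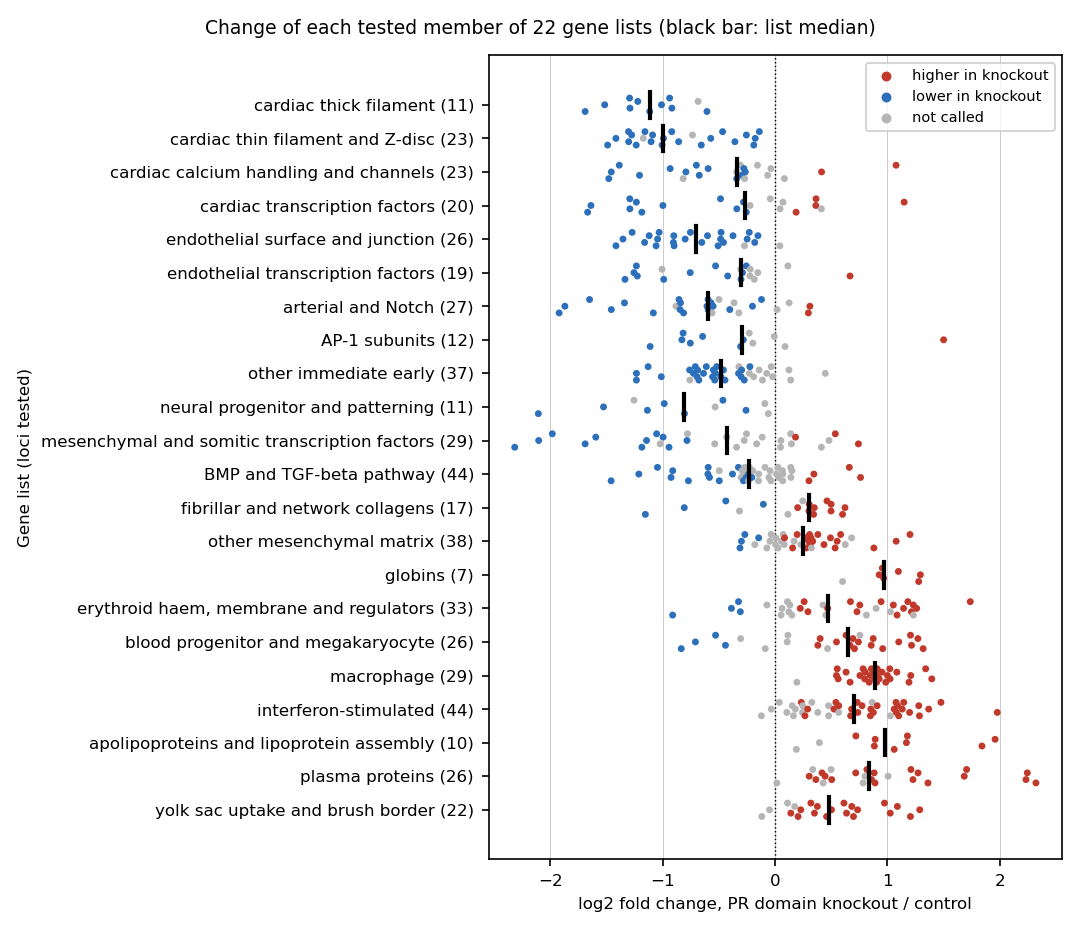
Log2 fold change (PR domain knockout over control) of every tested member of 22 gene lists, with 1 point per locus coloured by its call and a black bar at the list median. Sarcomere, endothelial, Notch and immediate early lists lie left of 0, and globin, macrophage, interferon and yolk sac endoderm lists lie right of 0, with single members on the other side.

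Endothelial genes were lower across the list. Of 26 surface and junction loci 24 fell and 0 rose (median -0.70), and 22 of 24 loci outside chromosomes 6, 8 and 19 fell. With DESeq2 16 were lower, and on FPKM 7. Cdh5, VE-cadherin of endothelial junctions, had 1279 and 1395 normalised fragments in the control and 514 and 531 in the knockout. Its change of -1.35 ± 0.07 (limma adjusted p = 9.69e-16) was -1.03 when centred for chromosome 8. Cd93 had 777 and 751 against 360 and 342, and Tie1, an endothelial receptor kinase, 790 and 776 against 407 and 433. The groups were apart for these 3 genes. The size of the fall differed widely within the list: Nos3, the endothelial nitric oxide synthase, fell by 1.27 and Pecam1, an adhesion protein shared with platelets, by 0.48. Kdr, the VEGF receptor that also marks early mesoderm, fell by only 0.18, from 2223 and 2304 to 2035 and 1959. Gpr182 did not pass, at 327 and 309 against 315 and 340.

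Arterial and Notch pathway genes fell too. Of 27 loci 18 fell and 2 rose (median -0.59), with 14 lower by DESeq2 and 6 on FPKM. Dll4, the Notch ligand of arteries, had 139 and 116 normalised fragments in the control and 34.1 and 31.4 in the knockout, and Notch4, an endothelial Notch receptor, 206 and 172 against 52.9 and 48.8. The groups were far apart for both. Gja4 and Gja5, the connexins of arterial endothelium, fell by 1.34 and 1.46, and Sema3g, a semaphorin of arteries, by 1.65. Efnb2, ephrin-B2, fell from 1752 and 1773 to 1012 and 956 (-0.84, chromosome 8, centred -0.52), and Hey1, a target of Notch, by 0.85. Rbpj, the DNA-binding partner of all Notch receptors, did not pass, at 289 and 272 against 317 and 296.

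Venous and lymphatic genes did not follow. Of 12 loci 5 rose and 2 fell (median 0.02). Stab1 and Stab2, scavenger receptors of sinusoidal endothelium, rose by 0.60 and 1.84, from 1351 and 1361 to 2073 and 2035 for Stab1. Ackr3, a scavenger receptor for the chemokine CXCL12, had 959 and 857 against 1608 and 1537. Ephb4, the venous receptor of ephrin-B2, had 1036 and 1102 against 988 and 1032 and did not pass. Stab1 is also made by macrophages and Ackr3 by mesenchyme, and their part in these values was not tested. Of 19 endothelial transcription factors 11 fell and 1 rose, with Sox18 at -1.33, Bcl6b at -1.25 and Klf2, a flow-responsive factor on chromosome 8, at -1.23 (centred -0.91). Tal1, which endothelium shares with blood, was the gene that rose (0.67).

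Genes of primitive red cells rose while the vessel genes fell. Of 7 globin loci 6 rose and 0 fell (median 0.97). The embryonic beta-type globins Hbb-bh1 and Hbb-y had 4016 and 3672, and 3814 and 3691 normalised fragments in the control, and 7634 and 7259, and 7056 and 7214 in the knockout. Hba-x, the embryonic alpha-type globin, rose from 2099 and 2017 to 4052 and 3992 (0.97 ± 0.04, limma adjusted p = 5.35e-17). The knockout libraries were the higher ones for all 3, and replicates lay close together. Hbb-bs, an adult globin, was low, at 19.3 and 14.4 against 26.9 and 24.8, and did not pass. Since globin genes resemble each other, the split of fragments among them is uncertain.

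Other erythroid genes followed in part: of 33 loci for haem synthesis, membrane proteins and regulators 16 rose and 4 fell (median 0.47). With DESeq2 14 rose and 3 fell, and on FPKM 4 rose and 1 fell. Alas2, the first enzyme of haem synthesis in red cells, had 374 and 332 normalised fragments in the control and 808 and 830 in the knockout. Slc4a1, the band 3 anion exchanger, had 188 and 190 against 444 and 463, and Gata1, the central erythroid regulator, 43.6 and 43.3 against 100 and 86.8. Later haem enzymes, which most cells make, moved less: Urod had 449 and 488 against 493 and 519 and Cpox 422 and 438 against 455 and 488, and neither passed. Tfrc, the transferrin receptor of many dividing cells, fell by 0.31. Klf1, a regulator of globin genes, had 16.2 and 15.5 against 28.7 and 32.3, with the groups apart, and did not pass (0.90, limma adjusted p = 0.0678). It lies on chromosome 8, and its centred value of 1.22 passed (limma adjusted p = 0.0126).

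Most loci of a list for blood progenitors, megakaryocytes and platelets rose. Of 26 loci 16 rose and 4 fell (median 0.65). Itga2b, the platelet integrin also found on the first blood progenitors, had 483 and 552 normalised fragments in the control and 1230 and 1351 in the knockout (1.32 ± 0.07, limma adjusted p = 1.33e-15). Its partner Itgb3 had 594 and 634 against 1037 and 950, and Plek, a platelet kinase substrate, 857 and 882 against 1434 and 1406. Gp9 and Treml1, receptors of the platelet surface, rose by 1.22 (chromosome 6, centred 1.14) and 1.27. Runx1, a regulator of definitive blood, rose by 0.74 and Spi1, the PU.1 factor of myeloid cells, by 0.63. The 4 that fell were Mecom, Cd34, Lmo2 and Kit, at -0.83, -0.71, -0.53 and -0.44. Ppbp, a platelet chemokine, had 172 and 157 against 179 and 175 and did not pass.

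Mecom is the closest paralogue of Prdm16, a PR domain factor of blood stem cells. It had 534 and 463 normalised fragments in the control and 288 and 270 in the knockout (limma adjusted p = 1.76e-08). Of 12 tested loci for the PRDM family and the cofactor Zfpm2, 2 rose and 2 fell (1 to 2 each with 1 library left out). Zfpm2 itself rose by 0.65. Prdm1, a repressor of germ cell and endoderm development, fell by 0.48, and Prdm6, a factor of smooth muscle, rose by 0.32. Prdm2 and Prdm11 did not pass, at -0.10 ± 0.06 and 0.13 ± 0.09. Among 22 loci for partners of PRDM16 and brown fat regulators only Ebf2, Kdm1a (-0.14) and Cebpa (0.67) passed, and Cebpa passed in 0 of the fits with 1 library left out. The fat cell genes Adipoq and Ucp1 were at 0 to 1.65 in all 4 libraries. Of 37 enzymes of H3K4 and H3K9 methylation 6 fell and 0 rose (2 to 9 lower with 1 library left out), and apart from Smyd1 their falls were small, such as Ash2l at -0.47 (chromosome 8, centred -0.15, no longer called).

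Macrophage genes rose almost without exception, 28 of 29 loci with 0 lower and a median of 0.89. Csf1r, the receptor for colony-stimulating factor 1, had 1375 and 1316 normalised fragments in the control and 2741 and 2732 in the knockout (1.02 ± 0.05, limma adjusted p = 9.69e-16). Mpeg1, a pore-forming protein, had 485 and 463 against 1110 and 1060 (1.19, chromosome 19, centred 1.33), and the locus of the lysozymes Lyz1 and Lyz2 896 and 873 against 1701 and 1666. The groups were far apart for all of these. Cx3cr1, a chemokine receptor of tissue macrophages, rose by 0.89 and Ptprc, the pan-leukocyte antigen CD45, by 0.80. Timd4, a receptor of resident macrophages, was low (11.2 and 11.4 against 10.8 and 15.7) and did not pass. The list took 0.152% and 0.149% of all fragments in the control and 0.277% and 0.283% in the knockout.

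Chemokine, complement and lysosome genes, many of them strong in macrophages, rose in part. Of 18 complement and chemokine loci 8 rose, 0 fell and 10 did not pass (5 higher without knockout replicate 2), with Ccl6 at 316 and 313 against 564 and 541 and Ccl9 at 316 and 275 against 519 and 490. Of 29 lysosome and iron loci 14 rose, 5 fell and 10 did not pass (median 0.25), with 3 lower without knockout replicate 2. Ctsb, the lysosomal protease cathepsin B, had 5348 and 5361 normalised fragments in the control and 8462 and 8741 in the knockout (0.68 ± 0.04). Ctsz rose by 0.50 and Fth1, the ferritin heavy chain, by 0.36 (chromosome 19, centred 0.49). Lamp2 and Psap did not pass, at 0.08 ± 0.05 and 0.11 ± 0.05. Since macrophages and yolk sac endoderm both make these proteins, their part in the rise was not tested.

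Interferon-stimulated genes rose in the knockout without any falling. Of 44 tested loci 28 rose (median 0.71), although 16 to 19 did so when 1 library was left out, 19 with DESeq2 and 9 on FPKM. The fewest were left without knockout replicate 2 (16) and control replicate 2 (18). Lgals3bp, a secreted glycoprotein, had 178 and 213 normalised fragments in the control and 406 and 433 in the knockout. Bst2, the tetherin that holds budding virions, had 277 and 310 against 474 and 500 (0.73, chromosome 8, centred 1.05). Isg15, a ubiquitin-like modifier chosen after its values were seen for its promoter, had 21.3 and 20.6 against 36.8 and 54.6 (1.06 ± 0.31, limma adjusted p = 0.0126). Ifit1 had 20.3 and 20.6 against 49.3 and 39.7, and Ifit3 14.2 and 9.29 against 31.4 and 36.4 (1.08 and 1.48, chromosome 19, centred 1.21 and 1.61). All knockout values lay above all control values for these genes. Adar, a double-stranded RNA editor made in most cells, had 405 and 380 against 376 and 390, with overlap, and did not pass.

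Of 18 loci for interferon ligands, receptors and kinases 4 rose and 2 fell (2 to 3 and 0 to 1 with 1 library left out, and 0 lower with chromosomes centred). The receptor subunit Ifnar1 had 728 and 749 against 802 and 802 and did not pass (0.12 ± 0.06). Tlr7, a sensor of single-stranded RNA found in macrophages, rose by 0.94. Of 22 antigen presentation loci 5 rose and 1 fell, and 1 to 3 rose with 1 library left out. B2m, the light chain of MHC class I, rose from 1784 and 1754 to 2534 and 2480. Calr, a chaperone on chromosome 8, was the gene that fell (-0.21), and its centred value was 0.12.

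The interferon-stimulated response element was searched for as GAAA, any 2 bases and GAAA again on both strands, with overlapping copies counted. It stood in 20 of 36 promoters of tested interferon-stimulated genes (55.6%), against 3.99% of all genes with a promoter, and in 3 of 22 macrophage promoters. Among the called interferon-stimulated genes 12 of 23 had it. The list is defined by response to interferon, so the match describes the list and not the knockout. Upstream stretches of 3 genes are shown with the element in capitals. They come from the RefSeq promoters at chr4:156200850-156200921 (minus strand), chr19:34640760-34640838 and chr19:34583348-34583441 (both plus strand), and Isg15 has 3 overlapping copies:
Isg15: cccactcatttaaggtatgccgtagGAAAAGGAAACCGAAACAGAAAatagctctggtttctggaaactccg
Ifit1: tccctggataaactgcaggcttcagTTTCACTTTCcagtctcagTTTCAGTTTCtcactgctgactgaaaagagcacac
Ifit3: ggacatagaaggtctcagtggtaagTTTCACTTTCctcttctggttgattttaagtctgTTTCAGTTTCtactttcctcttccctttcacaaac

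**Figure D4:**
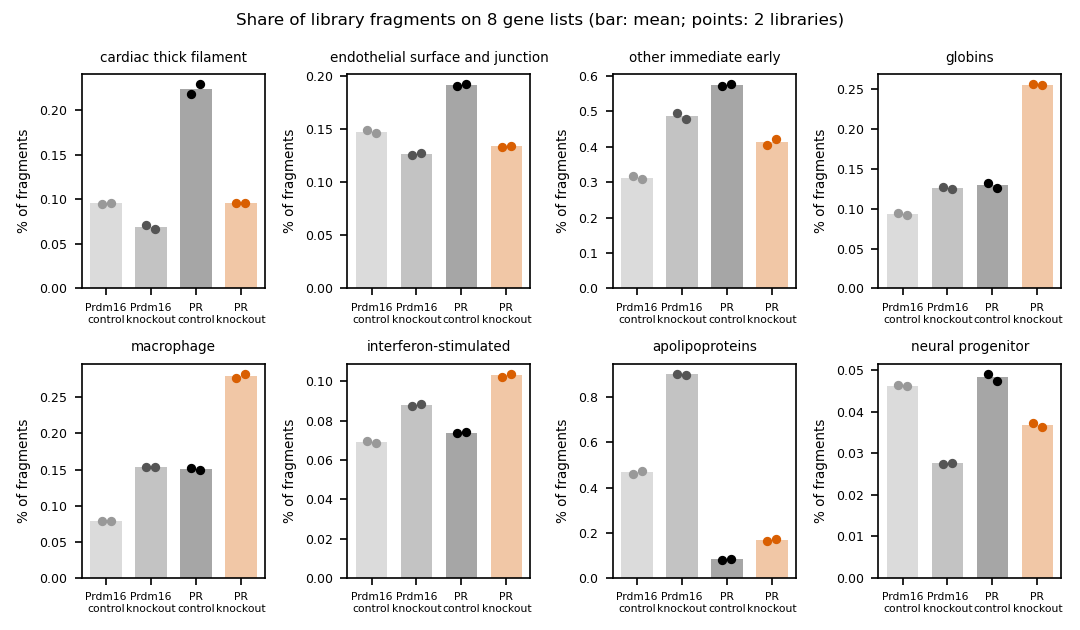
Share of all fragments taken by the tested loci of 8 gene lists in the control and knockout of each experiment, with points for the 2 libraries of a group and bars for their mean. Thick filament genes fell from 0.218% and 0.229% to 0.0960% and 0.0961% in the PR domain knockout, beside 0.0953% and 0.0962% in the control of the Prdm16 knockout, and globins rose from 0.133% and 0.127% to 0.256% and 0.255%.

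Genes of yolk sac endoderm, the tissue that supplies the early embryo with plasma proteins and lipoproteins, rose as well. Of 10 loci for apolipoproteins and lipoprotein assembly 8 rose and 0 fell (median 0.98). Apob, the scaffold of lipoprotein particles, had 1279 and 1334 normalised fragments in the control and 3144 and 2781 in the knockout. Apoe had 4233 and 4444 against 7756 and 8349 (0.89 ± 0.04), and Apoa1 380 and 424 against 852 and 960. The groups were apart for all 3. Mttp, the transfer protein that loads lipid onto apolipoprotein B, rose by 0.72. Apoe is also a macrophage product, and the part of macrophages in its rise was not tested. The list took 0.164% and 0.170% of fragments in the knockout, still below the 0.459% and 0.475% in the control of the Prdm16 knockout.

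Plasma protein genes rose at 19 of 26 loci with 0 lower (median 0.84). Rbp4, the retinol carrier, had 1186 and 1287 normalised fragments in the control and 2269 and 2288 in the knockout (0.88, chromosome 19, centred 1.02). Ttr, its partner in plasma, had 250 and 277 against 582 and 698. Afp, the fetal albumin, rose less, from 2128 and 2132 to 2870 and 2935 (0.45 ± 0.04). Itih2 and Alb rose by 2.25 and 2.32 from few fragments, with 12.2 and 19.6 against 80.7 and 73.6 for Itih2. Serpinc1, antithrombin, had 72.0 and 48.5 against 59.2 and 60.4 and did not pass.

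Genes for uptake from the uterine side rose as well. Of 22 uptake and brush border loci 18 rose and 0 fell, at a median of 0.48, with 16 higher by DESeq2 and 4 on FPKM. Dpp4, a brush border peptidase, had 182 and 228 normalised fragments in the control and 436 and 432 in the knockout, and Car4, a membrane carbonic anhydrase, 854 and 840 against 1314 and 1279. Vil1, villin of microvilli, rose by 1.21 and Cubn, the endocytic receptor cubilin, by 0.74. Lrp2, the megalin with which cubilin works, did not pass, at 874 and 876 against 807 and 806, below the control in both knockout libraries.

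Among endoderm regulators 10 of 20 rose and 3 fell. Hnf4a, the factor that drives hepatic and yolk sac secretory genes, had 64.9 and 77.4 normalised fragments in the control and 119 and 129 in the knockout. Foxa2, a pioneer factor of endoderm, rose by 0.84. The 3 that fell, Sox17, Sox7 and Nr2f2, are also endothelial factors, and Sox17 had 97.4 and 131 against 61.0 and 52.1. Cholesterol synthesis genes showed no common direction, with 4 of 29 higher and 6 lower (1 to 5 lower with 1 library left out). Retinoic acid genes were split, at 5 of 17 higher and 5 lower (3 to 4 and 3 to 5 with 1 library left out): Aldh1a2, the synthesising enzyme, rose by 0.89, and Cyp26a1, the degrading enzyme, fell by 1.44 (chromosome 19, centred -1.31).

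Immediate early genes, which cells switch on within minutes of a stimulus or of handling, were lower. Of 12 loci for AP-1 subunits 7 fell and 1 rose (0 higher without control replicate 1 or knockout replicate 2), and of 37 other immediate early genes 25 fell and 0 rose (medians -0.29 and -0.48). Fos had 6840 and 6846 normalised fragments in the control and 4299 and 4459 in the knockout (-0.64 ± 0.04, limma adjusted p = 2.39e-14). Fosb had 4320 and 4500 against 2542 and 2689, and Btg2, an antiproliferative gene, 2550 and 2513 against 1193 and 1320. Replicates lay close to each other and the groups were far apart. Ier2 fell by 1.13 and Jund by 0.82, both on chromosome 8, with centred values of -0.81 and -0.50. Batf3, a factor of dendritic cells, was the AP-1 gene that rose, from 3.04 and 6.19 to 11.7 and 17.4. Fosl2 and Zfp36l1 did not pass, at -0.01 ± 0.07 and -0.02 ± 0.05. The sources used here do not give the time from harvest to lysis.

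The CArG box stood in 4 of 26 promoters of the other immediate early genes, those of Egr2, Dusp5, Zfp36 and Srf, and all 4 genes were lower, Dusp5 at -0.53 (chromosome 19, centred -0.39). Of 11 AP-1 promoters 0 held it in this window. Egr2, a zinc finger factor, had 447 and 472 normalised fragments in the control and 321 and 304 in the knockout. Its upstream stretch at chr10:67537469-67537528 (plus strand) is printed with 1 box in capitals, for comparison with the boxes of Actc1 and Myl7:
Egr2: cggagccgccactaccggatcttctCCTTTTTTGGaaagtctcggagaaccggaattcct

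Targets of BMP signalling were among the pathway genes that fell. Of 44 BMP and TGF-beta loci 16 fell and 4 rose (median -0.23). With DESeq2 10 fell and 4 rose, and on FPKM 5 fell and 1 rose. The Id genes encode inhibitors of differentiation factors and are direct targets of BMP signals. Id1 had 783 and 813 normalised fragments in the control and 423 and 416 in the knockout, and Id3 943 and 925 against 475 and 519. Id2 fell by 0.50. The ligands Bmp2 and Bmp4 fell by 0.58 and 0.38, while Tgfb3 rose by 0.76, and the receptors Bmpr1a and Tgfbr1 did not pass, both at -0.04 ± 0.05.

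Other pathways were mixed. In the Wnt list 9 of 42 rose and 11 fell (5 to 7 and 6 to 7 with 1 library left out), with the secreted modulators Sfrp2 and Rspo1 at 1.12 and 0.77 and the receptor Fzd6 at -0.60. In the FGF list 11 of 25 fell and 5 rose (6 to 9 and 3 to 5 with 1 library left out). Fgf15 fell by 1.21 and Il17rd, an inhibitor of FGF signals, by 0.45, while Fgfr1 at -0.36 was no longer called once centred for chromosome 8 (-0.04). In the hedgehog list 2 of 15 rose (1 to 3 with 1 library left out). The hedgehog share of 13.3% higher stood beside 8.82% of all loci. In the insulin and IGF list 7 of 20 rose and 6 fell. The locus of Igf2, which overlaps the predicted gene Gm49394, had 24730 and 24542 normalised fragments in the control and 32961 and 32893 in the knockout, and Igfbp5 had 10327 and 10261 against 7898 and 7344.

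Transcription factors and matrix genes of mesenchyme went opposite ways. Of 29 mesenchymal and somitic factors 11 fell and 3 rose (median -0.43), with 1 higher without control replicate 1 or without knockout replicate 2. Prrx1 and Prrx2, homeobox genes of limb and face mesenchyme, had 280 and 268, and 316 and 327 normalised fragments in the control, and 145 and 129, and 135 and 156 in the knockout. Six2, a kidney and head mesenchyme factor, had 99.4 and 88.8 against 21.5 and 20.7, and Twist1 fell by 0.78. Zeb1 did not pass, at 726 and 761 against 806 and 738.

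Collagens of connective tissue rose. Of 17 fibrillar and network collagen loci 10 rose and 4 fell (median 0.30). Col1a1 had 21643 and 21333 normalised fragments in the control and 32384 and 33794 in the knockout (0.62 ± 0.03). Col3a1 had 39878 and 40153 against 49493 and 49150, and Col6a3 rose by 0.60. These are among the most abundant transcripts, and the groups were apart for all 3. Col2a1, the cartilage collagen, fell from 2190 and 2250 to 1278 and 1258, and Col15a1, a vessel basement membrane collagen, by 1.15. The main basement membrane chains Col4a1 and Col4a2 share a promoter on chromosome 8 and fell by 0.71 and 0.62 (centred -0.39 and -0.30). Of 38 other matrix genes 19 rose and 4 fell, with Postn at 15011 and 14716 against 18537 and 18383 and Fmod, a collagen-binding proteoglycan, at 359 and 352 against 671 and 639.

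Genes of neural and early embryonic cells were lower and mostly low. Of 11 neural progenitor loci 7 fell and 0 rose (median -0.81). Nes, an intermediate filament shared by neural progenitors and young vessels, had 1285 and 1260 normalised fragments in the control and 937 and 908 in the knockout. Sox2, a factor of neural progenitors, had 177 and 162 against 78.9 and 91.8, and Pax6 159 and 169 against 88.8 and 98.4. Sox1, a defining neural marker, was near 0 at 0.897 to 4.06. Of 10 neuron loci 5 fell and 1 rose. Stmn2 had 125 and 99.1 against 37.7 and 40.5, and Gap43 272 and 242 against 115 and 114. Elavl3, whose locus holds other genes as well, did not differ in call (99.4 and 104 against 98.7 and 104).

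Residual pluripotency was low in both groups. In the pluripotency list 8 of 16 tested loci fell and 2 rose (median -0.33), with 6 lower by DESeq2 and 5 on FPKM. Nanog and Zfp42 lay between 0 and 9.10 in the 4 libraries, and Pou5f1 was at 9.13 and 8.26 in the control and 15.3 and 17.4 in the knockout. Tdgf1, a coreceptor of Nodal, had 122 and 127 against 22.4 and 34.7, a log2 fold change of -2.11. Otx2, an epiblast and forebrain factor, had 72.0 and 69.1 against 17.9 and 23.2, and Lin28b, a blocker of let-7 maturation, fell by 0.84. Tfcp2l1, a naive pluripotency factor that kidney and gut epithelia also make, rose from 198 and 185 to 406 and 354. The germ cell, trophoblast and skeletal muscle markers Ddx4, Dazl, Elf5, Prl3d1, Myod1 and Myog were at 0 to 3.10 in all 4 libraries. Tpbpa, a trophoblast marker also below the filter, had 1.01 and 0 in the control and 7.18 and 5.79 in the knockout. Among tested loci, 2 of 3 in the germ cell list fell and 0 of 3 in the skeletal muscle list were called. In the trophoblast and extraembryonic ectoderm list 2 of 8 rose and 2 fell. Of 19 HOX loci only Hoxa13 passed (-0.94, chromosome 6, centred -1.01), and 0 did in any fit with 1 library left out.

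Imprinted genes gave some of the largest changes in fragment number. Of 39 loci 13 rose and 5 fell. Dlk1, an inhibitor of differentiation, had 8152 and 8092 normalised fragments in the control and 11213 and 12349 in the knockout. Mest and Peg10 on chromosome 6 fell by 0.40 and 0.26 (centred -0.47 and -0.33). The locus of H19 and its microRNA Mir675 had 79138 and 78754 against 70679 and 72573, a log2 fold change of -0.14. Thus Igf2 was higher and its neighbour H19 lower in both knockout libraries.

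Genes of general cell functions had small changes. Of 47 cell cycle loci 15 fell and 0 rose at a median of -0.09, with 5 lower by DESeq2 and 7 to 17 when 1 library was left out. Mki67, the proliferation antigen, had 3278 and 3388 against 3354 and 2858 and did not pass. Of 35 ribosome biogenesis loci 8 fell, 5 of them outside chromosomes 6, 8 and 19, and of 31 respiratory chain loci 8 fell (4 to 8 and 3 to 8 with 1 library left out). Glycolysis genes rose at 9 of 36 loci and fell at 4 (4 to 6 higher with 1 library left out), with Ldha at 5320 and 5336 against 4639 and 4772 and the glucose transporter Slc2a3 at 3442 and 3387 against 4504 and 4472 (chromosome 6, centred 0.32). Genes of unfolded protein, amino acid and heat stress were mixed, at 3 of 37 higher and 8 lower (1 and 3 with DESeq2, 0 and 1 on FPKM).

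Within 1 Mb of Prdm16 on chromosome 4, 27 loci were tested and 5 passed, 18.5% beside 20.1% of all loci. Megf6 had 821 and 907 normalised fragments in the control and 1486 and 1579 in the knockout (0.83 ± 0.06), Smim1, a red cell membrane protein, rose by 0.53, Ccdc27 by 0.93 and Fam213b by 0.52, and Gnb1 fell by 0.10. Ski, a neighbour that represses TGF-beta signals with PRDM16, did not pass, at 1225 and 1230 against 1194 and 1279. Among long noncoding RNAs with a mean of at least 100, the largest falls were Gm31251 (180 and 187 against 67.3 and 43.8), Gm26714 and Gm11175, and the largest rises were Gm48488, Gm26776 and 9930014A18Rik, at 0.54 to 0.64. Gm26714 and Gm11175 lie on chromosome 8 (centred -0.95 and -0.39).

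The knockout labelled as Prdm16, measured against its own control, shares no library with this comparison. It had 2922 higher calls (18.4%) and 3427 lower calls (21.6%). Its 4 tested sex chromosome indicator loci were all lower, at a median of -8.05, and the difference between knockouts was called at all 4. The X-linked Xist and Tsix of this list, at 0.897 to 5.16 in the 4 PR domain libraries, were below the filter and not among them. The tested loci took 0% and 1.4e-05% of fragments in the Prdm16 knockout, against 0.0165% and 0.0173% in its control. The cause was not tested. Of the 1400 loci higher in the PR domain knockout 900 were higher there too, which is 64.3% of these and 30.8% of the higher calls there. Of the 1798 lower loci 1035 were lower there, which is 57.6% and 30.2%. Both knockouts lay below their own controls on chromosomes 8 and 19, and the shared lower loci include 225 on chromosome 8 and 86 on chromosome 19. Outside chromosomes 6, 8 and 19 the shared lower loci were 694 of 1247, which is 55.7% of these and 25.2% of the lower calls of the Prdm16 knockout there. Opposite calls were made at 213 loci, 70 higher and 143 lower in the PR domain knockout. Across the 3198 called loci the log2 fold changes had a Pearson correlation of 0.64 and a Spearman correlation of 0.67, and over all loci the Pearson correlation was 0.45. These are given as a description over loci that share libraries within each comparison. The test of the difference between both effects called 2739 of all loci (17.3%) and 1052 of the 3198 (32.9%). The wild-type sets compared with each other had 5249 calls (33.1% of all loci).

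Immediate early genes went opposite ways. Fos fell by 0.64 in the PR domain knockout and rose by 1.41 in the Prdm16 knockout, where it had 1833 and 1898 normalised fragments in the control. The difference of -2.05 passed (limma adjusted p = 1.60e-23). In the Prdm16 knockout 29 of 37 other immediate early loci rose, and the difference was called and negative at 29. Both PR domain groups lay above the control of the Prdm16 knockout for Fos, and the wild-type sets themselves differed by 1.87 on the log2 scale (limma adjusted p = 3.33e-27). Mecom fell in the PR domain knockout and did not pass in the other (-0.19), and this difference of -0.64 passed too (limma adjusted p = 4.91e-04).

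Several heart muscle genes fell further in the PR domain knockout. The difference was negative and called at 9 of 11 thick filament loci and 16 of 23 thin filament and Z-disc loci, with Actc1 at -0.95, Sorbs2 at -0.82 and Ttn at -0.63. Myocd had a difference of -0.72. The level of these genes in the wild-type sets is given beside this. Actc1 had 1636 and 1686 normalised fragments in the control of the Prdm16 knockout, which is the level of the PR domain knockout (1659 and 1490) and less than the 4350 and 4048 of its own control. Myh6 and Myh7 had 2329 and 2434 there. For Actc1 the wild-type sets differed by 1.34 on the log2 scale (limma adjusted p = 8.47e-20). Pax1 and Ebf2 fell less in the PR domain knockout than in the Prdm16 knockout, where they fell by 5.76 and 4.76, with differences of 4.07 and 2.44. Tubb1 and Mylk rose in the PR domain knockout and had -0.22 and -0.16 in the other, with differences of 1.56 and 1.45. Of the 29 macrophage loci 27 rose in the Prdm16 knockout, and of the 26 endothelial surface and junction loci 16 fell and 2 rose. The difference between knockouts was called at 14 of the macrophage loci, 12 of them negative, and at 10 of the endothelial loci, all 10 negative. Csf1r had 1.02 in the PR domain and 1.18 in the Prdm16 knockout, a difference of -0.16 that did not pass. Cdh5 had -1.35 and -1.05.

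**Figure D5:**
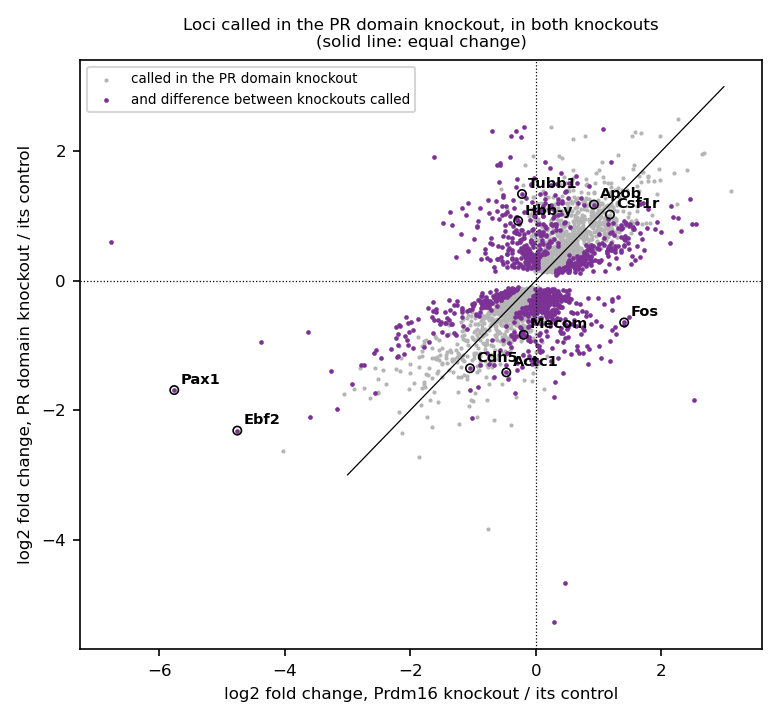
Log2 fold change in the Prdm16 knockout (horizontal axis) against that in the PR domain knockout (vertical axis) for the 3198 loci called in the latter, with loci whose difference between effects passed in purple. Most points lie in the quadrants where both knockouts go the same way, Fos stands at lower right with opposite effects, and Pax1 and Ebf2 lie far to the left of the line of equal change.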

How the data were processed

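RNA was sequenced from day 9 embryoid bodies. Per the submitters' processing notes TopHat2 2.1.1, SAMtools 1.5, Cufflinks 2.2.1 and deepTools were used with mm10. Per the file headers the authors deposited count and FPKM values per locus, and the sources used here do not state strand use. The authors normalised the count values (here called signal, elsewhere normalised fragments) before they were deposited, which is inferred from the values and not from a header. The deposited signal is a whole number of fragments divided by a size factor: 99.99% to 100% of values came out whole within 0.1 of a fragment. The 787 loci without a name held 2.28% to 2.53% of fragments and were left out of the tests.

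The test was limma 3.58.1 (R 4.3.3) with trend on log2(value + 1), over the 4 groups of all 8 libraries (4 residual and 26.4 prior degrees of freedom), with Benjamini-Hochberg adjustment over 15878 loci. A symbol with several loci stands for the locus with the highest mean. Alternatives were edgeR 4.0.16 and DESeq2 1.42.0 on the recovered fragments, other scalings, pseudocounts and filters, FPKM, the 4 libraries alone, a replicate block and each library left out. In simulated data for this comparison, with 15589 loci, 44 of 50 loci changed 2-fold and 34 of 50 changed 1.5-fold were called, beside 3 of 15390 unchanged loci. The simulated dispersion was fixed, few loci were changed and no chromosome was shifted. It therefore gives no rate of false calls for the real libraries.

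Replicate numbers were checked for pairing: deviations of same-numbered control and knockout libraries had a correlation of 0.0315. Loci named are the 15 largest falls and rises at a mean of at least 100, up to 4 called and 2 uncalled loci per list, PRDM genes, neighbours within 1 Mb and the largest differences between knockouts. Some genes that the rule selects are not reported here. Other genes named were picked with their values in view. The loci, gene lists and motifs were chosen with earlier results of these data known. Promoters are from RefSeq and the exon from GENCODE M21.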

Additional observations from a re-analysis of the deposited data

Results flagged for a closer look

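The effect of the PR domain knockout and that of the Prdm16 knockout, each against its own control, differed at 2739 loci by the test of the difference itself. Among genes named above, the PR domain effect minus the Prdm16 effect on the log2 scale was -2.05 for Fos, -0.64 for Mecom, -0.95 for Actc1, -0.82 for Sorbs2, -0.72 for Myocd and -0.63 for Ttn. It was 4.07 for Pax1, 2.44 for Ebf2, 1.56 for Tubb1 and 1.45 for Mylk. The wild-type sets were also unlike each other, for several of these genes and more widely. Between them 5249 of all loci were called (33.1%), beside 3198 (20.1%) for the PR domain knockout against its control. The part of that in each difference was not tested.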

How the results depend on the processing

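Of the 198 named loci that passed, all kept their direction in every alternative run except Calr, whose value was 0.117 with chromosome medians set equal. The number that no longer passed was 61 on FPKM, 16 with DESeq2, 3 with TMM scaling and 10 to 14 with 1 library left out. Leaving out at least 1 library ended the call of Alb, Batf3, Bmp4, Ccdc27, Cebpa, Fam213b, Foxa2, Gm26776, Gm48488, Gnb1, Hoxa13, Ifit1, Ifit3, Isg15, Kdm1a, Kdr, Prdm1, Prdm6, Sox7 and Tagln, and TMM scaling that of Tagln, Kdm1a and Gnb1. The loci called numbered 1797 with DESeq2, 642 on FPKM and 223 when tested against a fold of 1.5, and 2207 to 2469 with 1 library left out. Higher calls numbered 337 on FPKM and 109 against a fold of 1.5. Lower calls numbered 802 with DESeq2, 305 on FPKM, 1117 with chromosome medians set equal, 1182 without chromosomes 6, 8 and 19 (fewer loci tested), 114 against a fold of 1.5 and 1160 to 1443 with 1 library left out. The lowest 2 were without control replicate 1 (1160) and control replicate 2 (1175). The difference between knockouts was called at 1179 loci with DESeq2, 153 on FPKM and 1751 with no filter on low values. Chromosome centring, leaving out chromosomes and the fold test were chosen after the data were seen, and the cause of the lower counts was not tested otherwise. With the replicate number as a block 3151 loci were called, 1392 higher and 1759 lower, and the difference between knockouts at 2666. The numbers did not pair the libraries (correlation 0.0315). Depth limits low genes: Prdm16 itself rests on 66 and 45 fragments.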

Other observations

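Processed pseudogenes of ribosomal protein S15a gave the largest falls of single loci, chosen after their values were seen. Rps15a-ps5 had 115 and 108 normalised fragments in the control and 3.59 and 0.827 in the knockout, and Rps15a-ps8 had 114 and 111 against 3.59 and 3.31. These copies are nearly identical to other loci, so the assignment of fragments to them is uncertain.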
